A study of Mus musculus with 6 samples.

Results

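Hepatocytes make most of the proteins that carry lipids, hormones, vitamins and metals in blood plasma. The genes described here encode 10 of these carriers: albumin (Alb), afamin (Afm), vitamin D binding protein (Gc), transthyretin (Ttr), retinol binding protein (Rbp4), transferrin (Trf), the precursor of alpha-1-microglobulin and bikunin (Ambp), fetuin-A (Ahsg), fetuin-B (Fetub) and beta-2-glycoprotein I (Apoh). They were chosen by symbol, as genes with an array probe set that names that gene and no other. A probe set here is a row of the deposited table. Of the 10 genes, 9 had such a probe set, each exactly 1, out of 20242 genes and 115050 probe sets in all. Gc had none and is not analysed here.

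The study measured RNA from whole liver of 6 male C57BL/6 mice on an exon array, 1 array per mouse, after a fast of 24 hours. In the 3 Cpt2KO mice, floxed Cpt2 alleles were combined with Albumin-Cre, a recombinase driven by the albumin promoter and therefore active in hepatocytes. The 3 controls were Cpt2f/f, so floxed alleles and the fast were common to every animal, while Albumin-Cre was, per the labels, present in the knockout mice only. Effects of Cpt2 loss and of carrying the Cre transgene cannot be told apart in this design. Cpt2 encodes carnitine palmitoyltransferase II, an enzyme of the inner mitochondrial membrane needed for oxidation of long-chain fatty acids. Listed ages were 9, 10 and 11 weeks for controls and 12, 13 and 14 weeks for knockouts, although the growth protocol gives 9 weeks for all mice. By the listed ages every knockout was older than every control, so effects of age and genotype can hardly be told apart.

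Plasma carriers are made on the rough endoplasmic reticulum, pass through the Golgi apparatus and are secreted by hepatocytes without a storage step. Albumin carries fatty acids released by adipose tissue, and afamin, a relative, binds vitamin E and Wnt proteins. Their transcription in liver depends on factors enriched in hepatocytes, such as those of the HNF4, C/EBP and FOXA families. In inflammation or protein restriction the output of albumin, transthyretin, retinol binding protein and transferrin is known to fall, whereas many other plasma proteins rise in inflammation.

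Stretches from 250 bases before to 50 bases after the transcription start are shown for Alb, Afm and Fetub, the carriers with the largest differences between genotypes, and because the albumin promoter also drives Cre in this study. They come from RefSeq, build GRCm38.p6, at chr5:90460620-90460919 for Alb, chr5:90518699-90518998 for Afm and chr16:22918132-22918431 for the Fetub window that holds a marked motif (a second is not shown), all on the plus strand and written 5′ to 3′. Capitals mark the letters TATAAA, the TATA box, or the C/EBP pattern TTGCNNAA, in which N is any base, on either strand.
Alb: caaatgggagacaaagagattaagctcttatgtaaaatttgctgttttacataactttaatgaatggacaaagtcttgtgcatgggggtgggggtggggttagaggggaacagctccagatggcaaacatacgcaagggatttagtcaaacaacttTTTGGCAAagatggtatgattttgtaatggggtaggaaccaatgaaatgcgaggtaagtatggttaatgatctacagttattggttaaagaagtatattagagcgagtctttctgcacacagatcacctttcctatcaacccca
Afm: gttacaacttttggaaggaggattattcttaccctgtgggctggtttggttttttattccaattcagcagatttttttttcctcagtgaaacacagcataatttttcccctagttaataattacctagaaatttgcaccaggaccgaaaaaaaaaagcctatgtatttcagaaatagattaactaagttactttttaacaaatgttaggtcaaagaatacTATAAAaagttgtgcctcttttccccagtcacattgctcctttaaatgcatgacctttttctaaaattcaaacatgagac
Fetub: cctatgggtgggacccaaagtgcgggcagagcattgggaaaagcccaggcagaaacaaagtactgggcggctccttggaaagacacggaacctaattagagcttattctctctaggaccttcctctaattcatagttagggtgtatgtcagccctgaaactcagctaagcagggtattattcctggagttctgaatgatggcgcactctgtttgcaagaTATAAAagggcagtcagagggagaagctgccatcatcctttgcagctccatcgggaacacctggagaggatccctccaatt
Promoter windows were matched for 8 of the 10 genes by symbol. TATAAA was found for Afm, Fetub and Rbp4, its first base at 30, 31 and 28 bases before the start, against 15.7% of the 27025 genes with windows of the same length (13.6% of all 32851 windows, as a gene can have several). The C/EBP pattern, which does not overlap TATAAA in the windows shown, was found for Alb, Rbp4 and Ahsg, against 12.2% of genes (10.8% of all windows). In Alb it lay on the minus strand, with the leftmost base 94 bases before the start. Neither was found in the windows of Gc, Ambp and Apoh. These matches describe letters in the windows and are not evidence of binding.

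The targeted gene was lower in every knockout liver. Cpt2 had log2 values of 7.56, 7.72 and 7.63 in controls and 6.48, 6.73 and 6.75 in knockouts, a difference of -0.99 (SE 0.11, adjusted p = 0.0013 by limma). Markers of hepatocytes were bright on all arrays, as the mean log2 value of 9 such genes ran from 10.49 to 10.58 in controls and from 10.1 to 10.32 in knockouts.

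All 9 measured carriers had lower mean values in the knockout livers, and in each of them the highest knockout array lay below the lowest control array. The same non-overlapping, downward arrangement was found in 11.1% of all genes tested. By limma with adjustment over 20242 genes, 6 of the 9 fell, 0 rose and 3 did not pass an adjusted p of 0.05, where 3.49% of all genes passed in the downward direction. The median difference of the 9 was -0.55 on the log2 scale, against -0.01 over all genes. The 9 are bright genes, from percentile 93 (Afm) to 99.91 (Alb) of mean level, whereas all genes include many dim ones. With only genes above the 50th percentile tested, 848 genes fell, against 707 of all 20242, so the share was larger among brighter genes. The same 6 of the 9 count was found there. Afm fell most, to 41.2% of the control signal, followed by Fetub (57.1%), Alb (62.0%), Trf (64.7%), Apoh (68.2%) and Ttr (70.4%). Ahsg, Ambp and Rbp4 had smaller differences that did not pass. Whole liver was measured, so fewer hepatocytes and less RNA per hepatocyte cannot be told apart.

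**Figure D1:**
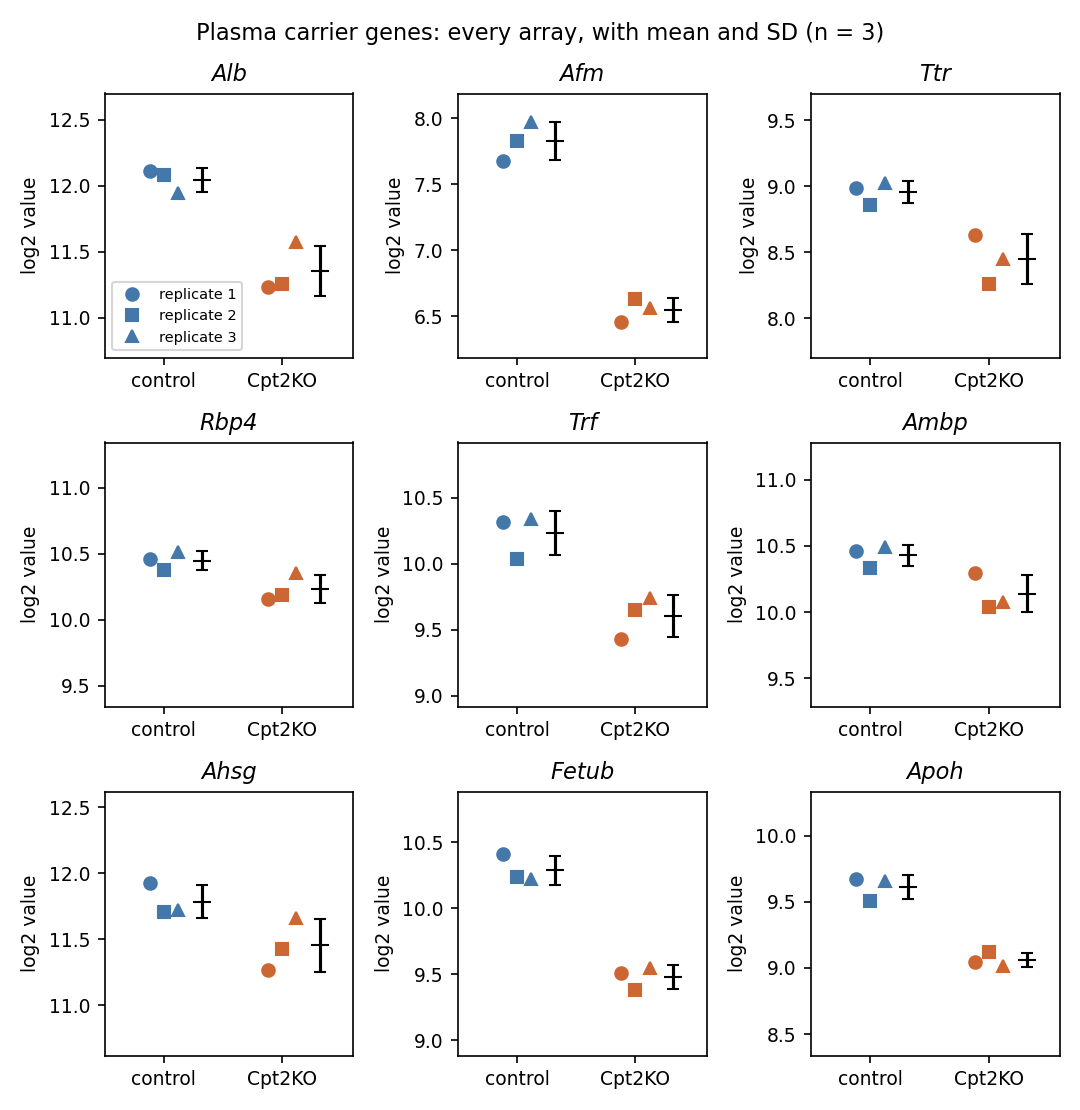
Log2 values of the 9 measured plasma carrier genes in each of the 6 livers, by genotype. Symbols are single arrays, and black bars give the mean and SD of 3 arrays. Every panel spans the same range of 2 log2 units. The groups do not overlap in any panel, and the distance between them is largest for Afm and smallest for Rbp4.

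Among the albumin family, albumin itself read 12.11, 12.08 and 11.94 on the log2 scale in controls and 11.23, 11.26 and 11.57 in knockouts. The groups were separated by 0.37, and the third knockout lay above the other two. The difference of -0.69 (SE 0.12, 95% interval -0.97 to -0.42) had an adjusted p of 0.00972 by limma. Afm read 7.68, 7.83 and 7.97 in controls and 6.45, 6.63 and 6.56 in knockouts. The gap between the groups, 1.05, exceeded the whole spread within either of them, as the gap also did for Alb, Fetub and Apoh. The difference was -1.28 (SE 0.11, 95% interval -1.53 to -1.03, adjusted p = 0.000392 by limma), and Afm was the carrier that passed in all 17 alternative analyses. Albumin lost its call where every probe set of the table was tested (adjusted p = 0.203), under unmoderated statistics (0.0783) and after adding listed age to the model (0.321), while its difference stayed between -0.82 and -0.63. The log ratio of Afm to Alb within an array ran from -4.43 to -3.97 in controls and from -5.01 to -4.63 in knockouts, lower by 0.59 in the knockouts with no overlap between the groups (exact permutation test, two-sided p = 0.1, the smallest that 3 arrays against 3 allow).

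Transthyretin carries thyroxine and, through retinol binding protein, retinol. Ttr read 8.98, 8.86 and 9.02 in controls and 8.63, 8.26 and 8.45 in knockouts. The gap between the groups was 0.23, and the knockouts were the more scattered group. The difference was -0.51 (SE 0.12, adjusted p = 0.0362 by limma), which makes Ttr the carrier nearest to the threshold among those that passed. Its call was lost without replicate 1 (adjusted p = 0.109), 2 (0.0717) or 3 (0.122) of the controls or replicate 2 (0.0955) or 3 (0.0892) of the knockouts, and after quantile normalization (0.0617) or centring of the arrays on their medians (0.0596). It was also lost where every probe set was tested (0.378), under unmoderated statistics (0.133) and after adding listed age (0.792). Rbp4, its partner in plasma, read 10.46, 10.37 and 10.51 in controls and 10.16, 10.19 and 10.36 in knockouts. The groups touched within 0.0175, and the difference of -0.21 (SE 0.10, 95% interval -0.44 to 0.01) did not pass (adjusted p = 0.286 by limma). Within arrays, the log ratio of Ttr to Rbp4 was -1.48, -1.52 and -1.49 in controls and -1.53, -1.93 and -1.91 in knockouts, a shift of -0.29 without overlap (exact permutation p = 0.1).

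Transferrin delivers iron to cells. Trf read 10.32, 10.04 and 10.34 in controls and 9.43, 9.65 and 9.74 in knockouts. The second control was the low one of its group, yet it lay 0.30 above the highest knockout. The difference was -0.63 (SE 0.13, adjusted p = 0.0189 by limma). It did not pass without replicate 1 (adjusted p = 0.0702) or 3 (0.0751) of the controls or replicate 1 (0.0617) or 2 (0.0505) of the knockouts, with a difference between -0.65 and -0.54 in these fits. Nor did it pass where every probe set was tested (0.271), under unmoderated statistics (0.112) or after adding listed age (0.28, with a difference of -0.88).

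Ambp encodes a precursor that is cut into alpha-1-microglobulin, a lipocalin that binds heme, and bikunin, a protease inhibitor. It read 10.46, 10.34 and 10.49 in controls and 10.30, 10.04 and 10.08 in knockouts. The first knockout came within 0.0394 of the lowest control. The difference was -0.29 (SE 0.11, 95% interval -0.54 to -0.04, adjusted p = 0.168 by limma), and Ambp passed in 0 of the 17 alternatives, as did Rbp4 and Ahsg.

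The fetuins are cystatin-domain proteins encoded side by side. Fetuin-A, which keeps calcium phosphate in solution, read 11.93, 11.71 and 11.72 for Ahsg in controls and 11.27, 11.43 and 11.66 in knockouts. The third knockout nearly reached the lower controls, and the difference of -0.33 (SE 0.13, 95% interval -0.62 to -0.04) did not pass (adjusted p = 0.186 by limma). Fetuin-B, an inhibitor of the egg-coat protease ovastacin, read 10.41, 10.23 and 10.22 for Fetub in controls and 9.51, 9.38 and 9.55 in knockouts. These groups stood 0.67 apart. The difference was -0.81 (SE 0.10, 95% interval -1.04 to -0.57, adjusted p = 0.0024 by limma), with calls lost where every probe set was tested (0.105) and after adding listed age (0.336). The log ratio of Fetub to Ahsg was -1.51, -1.47 and -1.50 in controls and -1.76, -2.05 and -2.11 in knockouts. The ratio was lower by 0.48 in the knockouts, again without overlap (exact permutation p = 0.1).

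Apoh encodes beta-2-glycoprotein I, which binds anionic phospholipids. It read 9.67, 9.51 and 9.66 in controls and 9.04, 9.12 and 9.02 in knockouts. Its knockout values were the tightest of any carrier, with an SD of 0.05. The difference was -0.55 (SE 0.10, adjusted p = 0.0095 by limma), which was lost where every probe set was tested (0.238) and after adding listed age (0.501).

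**Figure D2:**
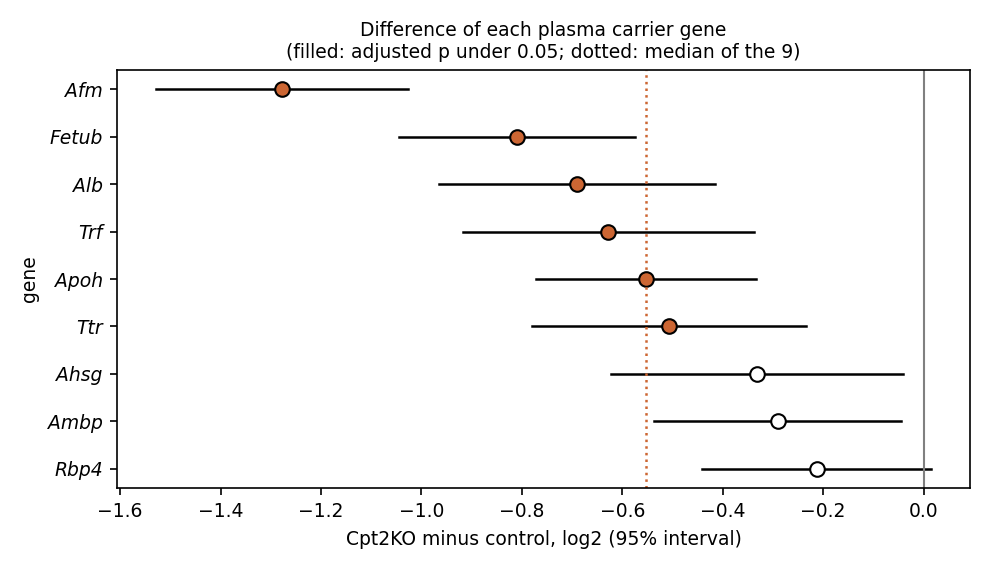
Difference between knockout and control on the log2 scale for each of the 9 carriers, with its 95% interval. Filled points passed an adjusted p of 0.05 by limma. Afm lies lowest at -1.28 and Rbp4 highest at -0.21, around a median of -0.55.

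Whether the carriers differed in the size of their decrease was examined by the log ratio of each pair within an array. None of the 36 pairs passed (exact permutation p between 0.1 and 0.9, smallest adjusted p 0.164 over the 36), and none can pass 0.05 in this design. As a description, the ratios of the genotypes did not overlap in 22 of the 36 pairs, a count for which the share over other pairs of genes was not computed. The ratio of Afm to each of the 8 other carriers was lower in knockouts without overlap, as was that of Fetub to 5 carriers. The ratio of Rbp4 was higher to 6 carriers, that of Ambp to 5 and that of Ahsg to 4. The pairs share genes and arrays and are not independent. In the order of the differences, the neighbours Fetub and Alb (-0.12, exact permutation p = 0.3) and Alb and Trf (-0.06, exact permutation p = 0.9) overlapped. After each gene was centred on its control mean, Trf and Apoh had the most similar profiles (root mean square difference 0.119 on the log2 scale over 6 arrays), then Rbp4 and Ahsg (0.125) and Alb and Fetub (0.129). Afm and Rbp4 were the least alike (0.76).

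Within a genotype the spread of the carriers lay around that of all genes. The SD of the carriers, pooled over both groups, ran from 0.0748 for Apoh to 0.165 for Ahsg. Its median was 0.12, against 0.143 over all genes, and Alb, Ttr, Trf and Ahsg lay above 0.143. Control replicate 2 was the lowest control for 6 of the 9 carriers and the highest for 0, against 32.9% and 35.5% of all genes. Among knockouts, replicate 1 was the lowest for 5 (30.4% of all genes) and replicate 3 the highest for 5 (32.1% of all genes), among them Alb, Trf and Ahsg. Knockout replicate 3 was the lowest knockout in 42.1% of all genes and the lowest for 1 of the carriers.

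By the same measure of likeness, the genes closest to Alb over the 6 arrays were Acadsb, a mitochondrial acyl-CoA dehydrogenase (0.0365), Nr1h4, the bile acid receptor FXR (0.0449), Mgam, a glucosidase (0.0594), Slc35b1, a nucleotide transporter of the endoplasmic reticulum (0.0617), and Erap1, a peptidase of the same compartment (0.0661). They were chosen for their likeness to Alb on these arrays, which favours genes with the higher value of knockout replicate 3 that Alb had. Nr1h4, for example, read 8.50, 8.50 and 8.42 in controls and 7.72, 7.65 and 8.06 in knockouts. Its call was lost without control replicate 2 (adjusted p = 0.0512). That of Erap1 was lost without control replicate 1 (0.0803), 2 (0.0659) or 3 (0.0666) or knockout replicate 1 (0.0777) or 2 (0.0768). Acadsb has 3 probe sets, of which the one with the highest mean was used. Its call was lost with the mean of its probe sets (adjusted p = 0.0635 by limma).

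Several carriers lie in runs of related genes, and the order of genes was taken from RefSeq (GRCm38.p6). On chromosome 5, Alb is followed by Afp, the fetal relative of albumin, then Afm and then Albfm1, a further gene named for the family. Afp was dim in all 6 livers, with log2 values from 2.98 to 3.08 in controls and from 2.80 to 2.98 in knockouts, and its difference of -0.16 did not pass (adjusted p = 0.436 by limma). Albfm1 fell by 0.82 on the log2 scale (adjusted p = 0.0247 by limma), a call that was lost without replicate 1 (0.0585) or 3 (0.08) of the controls or replicate 1 (0.0523) or 3 (0.056) of the knockouts. The next gene, Rassf6, rose by 0.66 (adjusted p = 0.0113 by limma). The 3 genes before Alb had differences between -0.05 and 0.01 and did not pass.

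On chromosome 16, Ahsg and Fetub are followed by Hrg, the histidine-rich glycoprotein, and by the kininogen genes Kng2 and Kng1, all with cystatin domains. Of these 5 genes 4 fell, against 3.49% of all genes, while Ahsg did not pass. Fetub fell by 0.81, Kng2 by 0.79, Kng1 by 0.66 and Hrg by 0.59 on the log2 scale (adjusted p from 0.0024 to 0.0156 by limma). Kng1 read 10.63, 10.55 and 10.56 in controls and 10.00, 9.87 and 9.91 in knockouts. Kng1 and Kng2 are close copies whose RNA can bind the same probes. The call of Hrg was lost without control replicate 1 (0.0546) or knockout replicate 2 (0.0546). The decreases extended to both nearer genes before Ahsg, Dnajb11, a chaperone of the endoplasmic reticulum, by 1.03 (adjusted p = 0.00304) and Tbccd1 by 0.70 (0.00301), and not to Eif4a2 after Kng1, at 0.76 (adjusted p = 0.0833 by limma, 0.0183 without control replicate 2).

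**Figure D3:**
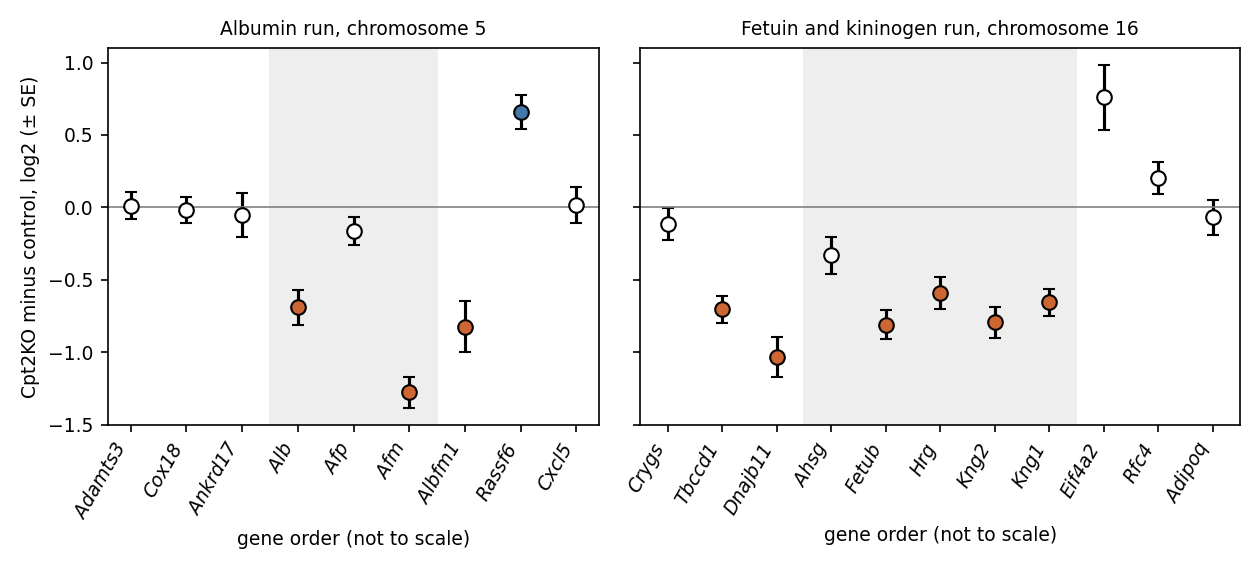
Difference between knockout and control (log2, with SE) for genes in their order along chromosomes 5 and 16, with 3 flanking genes on each side of the shaded families. Orange points fell and the blue point rose at an adjusted p of 0.05, and open points did not pass. Alb and Afm fell on either side of Afp, and 4 of the 5 genes from Ahsg to Kng1 fell.

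Other plasma proteins, listed together as transport proteins, were examined beside these carriers. Of 12 measured, 5 fell and 1 rose (3.49% and 4.74% of all genes passed in these directions), with a median of -0.39. The 12 include Ltf and Serpina7, which were dim in both genotypes. Mean log2 values in controls and knockouts were 3.25 and 3.05 for Ltf and 3.61 and 3.62 for Serpina7. Serpina6, the corticosteroid binding globulin, read 9.36, 9.57 and 9.89 in controls and 5.95, 6.03 and 6.79 in knockouts, a difference of -3.35 (adjusted p = 0.000159 by limma) that exceeded that of any of the 9 carriers. The HDL-bound paraoxonase Pon1 fell by 1.07 (adjusted p = 0.00419). Igfbp1, a binding protein for insulin-like growth factors that rises with fasting, read 9.67, 8.95 and 7.43 in controls and 10.25, 11.17 and 11.07 in knockouts, a rise of 2.15 (adjusted p = 0.0384). Its call was lost without control replicate 2 (0.0835) or without replicate 2 (0.119) or 3 (0.128) of the knockouts, leaving 0 of the 12 higher in those fits, and 2 were higher without knockout replicate 1. Igfals fell by 0.96, haptoglobin (Hp) by 0.93 and vitronectin (Vtn) by 0.77, the remaining calls in this list. The list of 10 lipocalins, the fold shared by Rbp4 and Ambp, includes these carriers. Of the 10, 1 fell, Apom, the HDL carrier of sphingosine-1-phosphate, by 0.85 (adjusted p = 0.00578). The list median was -0.26. Without control replicate 3, 2 lipocalins passed.

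Receptors that take up or recycle the carriers were mostly not called, with 1 of 11 lower and 0 higher (3.49% and 4.74% of all genes). The list median was -0.14. The one that fell was Lrp1, an endocytic receptor with many ligands, which read 8.95, 8.76 and 8.85 in controls and 7.64, 7.89 and 8.07 in knockouts (difference -0.99, adjusted p = 0.00255 by limma). The transferrin receptors differed by -0.32 for Tfr2 (adjusted p = 0.096) and -0.14 for Tfrc (0.832, with a difference of 0.08 without control replicate 1). Fcgrt, the receptor that recycles albumin, differed by 0.21 (adjusted p = 0.348). The 11 also include the insulin receptor, Insr, which does not take up or recycle the carriers (difference -0.37, adjusted p = 0.215 by limma).

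In the list of retinol and vitamin D handling, 3 of 11 genes fell and 1 rose (3.49% and 4.74% of all genes). The list median was -0.01. The retinal dehydrogenase Aldh1a1 fell by 1.05 (adjusted p = 0.006), the retinal reductase Dhrs3 by 0.96 (0.00205) and Cyp27a1, which also hydroxylates vitamin D, by 0.80 (0.0088). Bco1, which cleaves beta-carotene to retinal, read 5.27, 4.997 and 4.83 in controls and 7.09, 5.71 and 6.06 in knockouts, a rise of 1.25 (adjusted p = 0.0471 by limma). That call was lost without control replicate 1 (0.0746), 2 (0.13) or 3 (0.135) or knockout replicate 3 (0.0943), after quantile normalization (0.0765) or median centring (0.0602), and with a robust prior and mean-variance trend (0.0523). It was also lost where every probe set was tested (0.329), under unmoderated statistics (0.259) and after adding listed age (0.133). Lrat, which esterifies retinol for storage in stellate cells, differed by 0.19 (adjusted p = 0.607), between 0.083 and 0.37 when an array was left out. Of 8 genes of thyroid hormone handling, 1 passed, Thrsp, a thyroid hormone responsive gene of fat synthesis, which fell by 1.86 (adjusted p = 0.000837).

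Among 12 measured transcription factors known to act on the albumin promoter, 4 fell and 0 rose, with a median of -0.43. Over all genes, 3.49% fell and 4.74% rose at this threshold. Onecut1 (HNF6) read 7.25, 6.75 and 7.66 in controls and 5.68, 6.21 and 5.76 in knockouts, a difference of -1.34 (SE 0.23, adjusted p = 0.00975 by limma). The PAR bZIP factors Hlf and Tef fell by 0.91 (adjusted p = 0.00314) and 0.75 (0.00906), and the nuclear receptor Nr5a2 by 0.63 (0.00462). Hnf4a differed by -0.20 (adjusted p = 0.325), Cebpa by -0.53 (0.227) and Dbp, named for the D site of the albumin promoter, by -0.12 (0.728, with a difference of 0.01 after quantile normalization). Leaving out an array moved Cebpa between -0.72 and -0.28, Dbp between -0.23 and -0.037 and Hnf4a between -0.26 and -0.14.

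Markers of hepatocytes outside the carriers were examined in the same way. Of 9 hepatocyte markers 2 fell, where 3.49% of all genes did, and the median was -0.32. The fibrinogen chain Fgb fell by 0.76 (adjusted p = 0.00176 by limma) and prothrombin, F2, by 0.54 (0.0133). All 9 had lower means in the knockouts, and 6 of the 9 did so without overlap between the groups, an arrangement found in 11.1% of all genes. F2 was not called without replicate 1 (0.0561) or 3 (0.0578) of the controls or replicate 1 of the knockouts (0.0503), which left 1 of the 9. Cps1, the urea cycle enzyme abundant in hepatocyte mitochondria, differed by -0.14 (adjusted p = 0.652), between -0.20 and -0.037 when an array was left out.

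Markers of other liver cells were listed beside the carriers, and 30 of 37 were measured. Of these, 2 were higher (4.74% of all genes), 1 lower (3.49%) and 27 not called, with a median difference of -0.12. The mean log2 value of 6 Kupffer cell markers ran from 6.16 to 6.69 in controls and from 5.96 to 6.21 in knockouts. All 6 had lower means in the knockouts, 4 of them without overlap (11.1% of all genes), and their median difference was -0.39. Marco fell by 0.52 (adjusted p = 0.0344), a call lost without control replicate 1 (0.116) or 2 (0.121) or knockout replicate 1 (0.1), 2 (0.0506) or 3 (0.0987), and 2 of the 6 passed without control replicate 3. For 3 monocyte and macrophage markers the mean ran from 4.28 to 4.54 in controls and from 5.04 to 5.27 in knockouts, with Cd68, a protein of macrophage lysosomes, which rose by 2.32 (adjusted p = 0.000358 by limma). The other markers of this list did not pass, with -0.18 for Itgam, whose knockout values lay below the controls, and 0.05 for Ccr2, and the list median was 0.05. For 6 endothelial markers it ran from 6.93 to 7.06 and from 7.03 to 7.18, with Lyve1, a hyaluronan receptor of sinusoids, up by 0.92 (adjusted p = 0.00183). The other 5 did not pass and lay between -0.20 for Kdr and 0.03 for Pecam1, and the median of the 6 was 0.01. Of 7 stellate cell markers (5.44 to 5.51 in controls, 5.37 to 5.57 in knockouts), 3 cholangiocyte markers (4.05 to 4.18 and 3.75 to 4.07) and 4 lymphocyte markers (3.85 to 3.99 and 3.81 to 3.995) 0 passed. The largest differences in these were -0.21 for Reln, -0.39 for Sox9 and -0.20 for Cd79a, with -0.31 for Alas2, the 1 erythroid marker measured. Leaving out an array moved Reln between -0.31 and -0.09 and Cd79a between -0.28 and -0.07. The part of other cells in the decrease of the carriers was not tested.

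**Figure D4:**
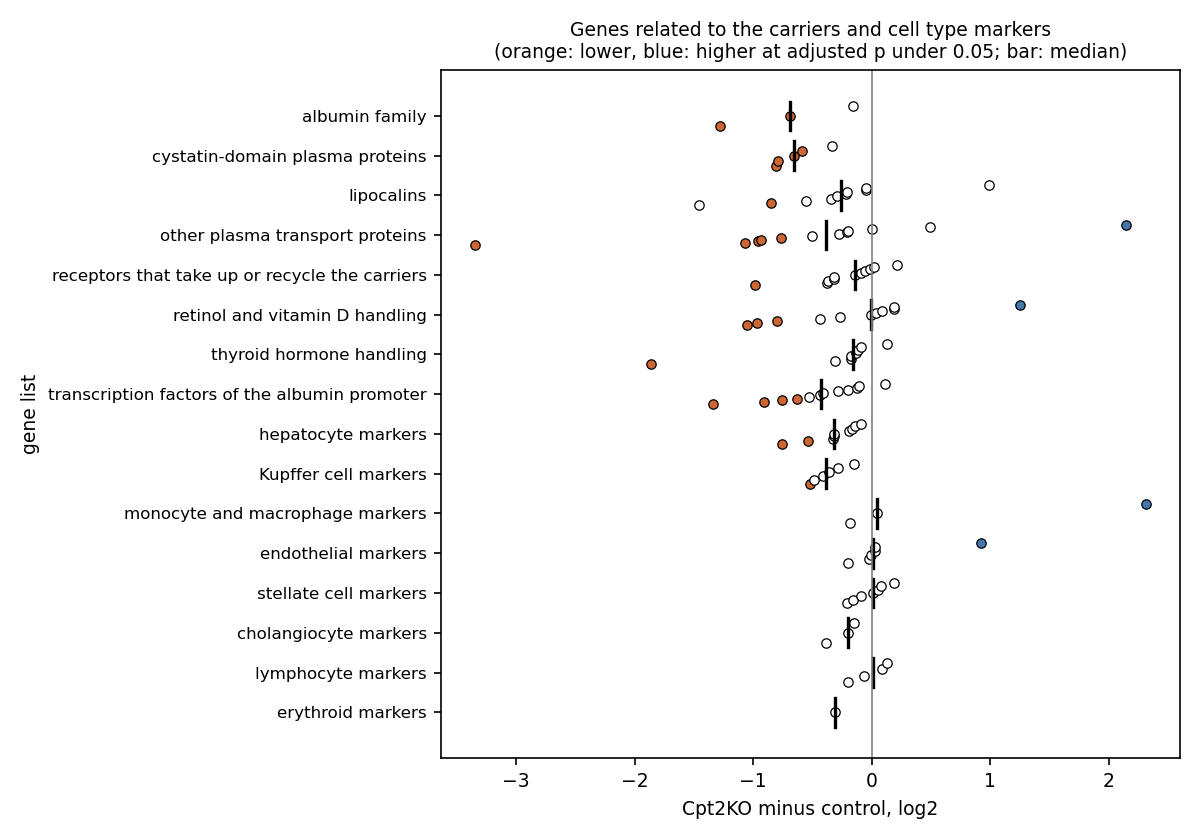
Difference between knockout and control (log2) for each measured gene of the wider lists and of the cell type markers. The albumin family, cystatin-domain and lipocalin lists include carriers, so these lists partly repeat the values of the carriers. The median of the albumin family is the value of Alb itself. Points are genes, bars are list medians, and orange and blue mark genes lower or higher at an adjusted p of 0.05. The medians are -0.69 for the albumin family, -0.66 for cystatin-domain proteins and -0.43 for transcription factors of the albumin promoter. Among cell type markers they are -0.39 for Kupffer cells, -0.32 for hepatocytes, -0.20 for cholangiocytes and 0.01 for endothelial, stellate and lymphocyte markers. They are 0.05 for monocyte and macrophage markers and -0.31 for the 1 erythroid marker.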

How the data were processed

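Liver RNA of 3 Cpt2KO and 3 control mice was measured on 1 array each. The authors deposited log2 values made with Partek and RMA on build mm9, per the submitters' processing notes. Versions and options of these tools were not stated. RMA corrects background, equalises arrays and combines the probes of a probe set. The values ran from 0.668 to 13.6, and saturation of bright probe sets such as that of Alb was not assessed. The number of arrays limits the precision. The labels call the samples biological replicates.

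Of 115050 probe sets, 25469 named 1 gene, 2286 several and 87295 none in the platform annotation. Entrez identifiers of 24878 matched a RefSeq table (GRCm38.p6), which changed 0 symbols. For genes with several probe sets the one with the highest mean over 6 arrays was used. All per-sample columns were used.

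Knockout and control were compared with limma 3.58.1 in R 4.3.3 (lmFit, eBayes, two-sided, no covariate, no filter), with Benjamini-Hochberg adjustment over 20242 genes and a threshold of 0.05. There were 4 residual and 4.23 prior degrees of freedom. SE and 95% intervals are those of the moderated test. Ratios between carriers were tested with exact permutation tests in SciPy 1.17.1. The gene test was checked on simulated data with the means and spreads of these genes. It recovered 9 of 67 genes changed by 0.5 log2 units (13.4%), 51 of 67 changed by 1 and 63 of 66 changed by 2. Of 20042 unchanged genes it called 4. Differences near 0.5 or smaller can thus be real and not called.

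The carriers, the lists beside them and the tests were chosen with earlier results of these data known. The text names all carriers, up to 3 called genes with the largest difference in each list (or the largest difference where none was called), and the 5 genes most like Alb, leaving out predicted genes. Genomic neighbours, Igfals, Hp, Vtn, Cyp27a1, Nr5a2, Hnf4a, Cebpa, Dbp, Tfr2, Tfrc, Fcgrt, Lrat and Cps1 were named after their values were seen. So were Insr, Itgam, Ccr2, Kdr and Pecam1. The 17 alternatives were quantile normalization, median centring, 2 filters on dim genes (above the 25th or 50th percentile), the mean of a gene's probe sets, every probe set tested, unmoderated statistics, a robust prior with mean-variance trend, weights for arrays, a replicate block, listed age as a covariate and leaving out each array.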

Additional observations from a re-analysis of the deposited data

How the results depend on the processing

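All 9 carriers stayed lower in the knockouts in each of the 17 alternatives. Of the 9, 1 passed where every probe set was tested, 3 with unmoderated statistics, 1 with listed age as a covariate and 4 to 5 when an array was left out. Genes called over the whole table numbered 960 higher and 707 lower, against 90 and 99 where every probe set was tested, 388 and 264 with unmoderated statistics, 35 and 48 with listed age, and 538 to 722 and 477 to 631 when an array was left out (higher: 538 without control replicate 2, 582 without control replicate 3). The first of these adjusts over more features and also fits the moderated test to all probe sets, and these changes were not separated. For the others the cause was not tested either. Listed age rises with the replicate number within each genotype and is higher in every knockout than in every control. The fit with listed age cannot tell age from sample order and separates it poorly from genotype. Of 34 other named genes called in the report, 31 lost the call where every probe set was tested (all but Cd68, Serpina6 and Thrsp), 22 with unmoderated statistics and 32 with listed age (all but Cd68 and Serpina6). Cpt2 itself had an adjusted p of 0.0692 in the first and 0.0753 in the last of these 3 fits. Listed age also turned the differences of Afp (0.047), Cd79a (0.10), Alas2 (0.31), Fcgrt (-0.056) and Lrat (-0.24), none of them called in any of these fits. Quantile normalization turned Dbp (0.0087), and leaving out control replicate 1 turned Tfrc (0.076, against -0.32 without knockout replicate 3). Same-numbered arrays of the genotypes had deviations correlated at 0.07, 0.18 and -0.08 over genes, and control replicate 1 correlated best with knockout replicate 3 (0.19), so the numbers were not taken as pairs. With the replicate number as a block, 6 carriers fell, 760 genes rose and 624 fell. The call of Igfbp1 was lost (adjusted p = 0.0647), and 2 lipocalins passed. Quantile normalization moved the median difference of the carriers from -0.55 to -0.41, and the median of all genes stayed within 0.01 of 0.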
